A study of Homo sapiens with 4 samples.

Results

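MIR17HG is a long noncoding RNA that carries the miR-17-92 microRNAs. It spans chr13:91347687-91354577 on the plus strand of GRCh38 (RefSeq), a length of 6891 bases. Its ADAR clusters were taken as every plus-strand interval of the authors' peak lists whose midpoint lay in that span. This gave 53 of 534161 clusters in replicate 1, 10 of 155848 clusters in replicate 2, and 25 of 1717 peaks in the list that combines both replicates, called here the reproducible list. The gene was chosen by its number of reproducible peaks, which rests on their folds and p-values, so the counts and folds of its clusters are given as a description, without a test.

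The data came from enhanced crosslinking and immunoprecipitation (eCLIP) of ADAR in K562, a human leukaemia line with erythroid features that the labels call a lymphoblast. In this assay, RNA crosslinked to a protein by ultraviolet light (here 254 nm, 400 mJ/cm2) is trimmed with RNase I, pulled down with an antibody and sequenced beside an input that was not pulled down. The groups were ADAR immunoprecipitation (IP) with an ADAR1 antibody, 2 libraries, and input with no antibody, 2 libraries. The cells received no treatment, and replicates 1 and 2 each paired 1 IP with 1 input. The labels do not state whether replicates 1 and 2 were separate cultures, and differences between them may be technical.

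A primary microRNA transcript such as MIR17HG folds into hairpins. DROSHA with its partner DGCR8 cuts each hairpin out in the nucleus, and DICER1 then cuts it to a short duplex, from which an arm (5p or 3p) is loaded into an Argonaute protein to silence messenger RNAs. The miR-17-92 cluster is driven by MYC, is amplified in some lymphomas and promotes proliferation and survival of blood cells. ADAR1 binds double-stranded RNA and deaminates adenosine to inosine, and some primary microRNA hairpins are among its known substrates.

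The 6 hairpins of the cluster lie in the order MIR17, MIR18A, MIR19A, MIR20A, MIR19B1 and MIR92A1 between positions 91350605 and 91351391. The arms that are commonly named as the active ones are shown because they group the cluster into families by their seed, bases 2 to 8, which pairs with targets and is in capitals. The sequences are those of RefSeq for GRCh38.p14.
hsa-miR-17-5p: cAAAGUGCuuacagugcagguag
hsa-miR-20a-5p: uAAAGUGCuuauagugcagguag
hsa-miR-18a-5p: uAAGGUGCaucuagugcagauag
hsa-miR-19a-3p: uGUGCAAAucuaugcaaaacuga
hsa-miR-19b-3p: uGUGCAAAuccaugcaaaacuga
hsa-miR-92a-3p: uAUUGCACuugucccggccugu
The seeds of miR-17-5p and miR-20a-5p were identical, as were those of miR-19a-3p and miR-19b-3p. The seeds of miR-18a-5p and miR-92a-3p were each held by 1 of these arms.

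The whole hairpins show where ADAR clusters fell. Capitals mark the bases that lay in an enriched replicate 1 cluster, defined as one whose log2 fold of IP over input and whose −log10 p both reached 3.
MIR17: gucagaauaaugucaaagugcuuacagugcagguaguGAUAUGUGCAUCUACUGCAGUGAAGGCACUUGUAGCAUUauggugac
MIR18A: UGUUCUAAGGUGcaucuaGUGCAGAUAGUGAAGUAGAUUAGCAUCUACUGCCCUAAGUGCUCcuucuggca
MIR19A: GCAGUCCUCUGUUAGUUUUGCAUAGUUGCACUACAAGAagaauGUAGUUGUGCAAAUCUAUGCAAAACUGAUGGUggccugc
MIR20A: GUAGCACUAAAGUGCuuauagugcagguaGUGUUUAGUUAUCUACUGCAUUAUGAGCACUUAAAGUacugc
MIR19B1: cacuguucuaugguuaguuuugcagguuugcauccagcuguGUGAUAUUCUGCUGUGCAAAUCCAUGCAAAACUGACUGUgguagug
MIR92A1: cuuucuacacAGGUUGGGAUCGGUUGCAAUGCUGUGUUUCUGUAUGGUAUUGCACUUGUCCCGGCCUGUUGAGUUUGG
Each hairpin held enriched bases, and in each the run of capitals reached into the 3p arm.

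The first question was where along the transcript IP exceeded input. In replicate 1, 52 of the 53 MIR17HG clusters were enriched, against 1.39% of all replicate 1 clusters. In replicate 2, 0 of the 10 were enriched, against 12.8% of all replicate 2 clusters. The median log2 fold of the MIR17HG clusters was 5.00 in replicate 1 and 1.96 in replicate 2, while over all clusters it was 0.07 in replicate 1 and 1.85 in replicate 2. These folds helped to choose the gene, so nothing is read from the excess. The fold values are the authors', 1 per cluster, so there is no spread between samples to set them against.

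The replicate 1 clusters formed a dense proximal stretch and a second set at the microRNAs. The proximal stretch began 150 bases after the RefSeq start and held 30 clusters within 1348 bases, from 91347837 to 91349184. Its log2 folds lay between 4.62 and 6.34. Of these, 25 clusters from 91348171 to 91349184 touched one another without a gap over 1014 bases. The highest fold of the stretch, 6.34, was at its distal end, at positions 91349107 to 91349184. Within the stretch the second highest, 5.90, was near the proximal end, at positions 91348062 to 91348125. Exons were not assigned here, so whether these bases belong to a spliced form of MIR17HG or to the primary transcript is not shown.

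Between the proximal stretch and the microRNAs, replicate 1 listed 3 separate clusters with lower folds. The cluster at 91349394 to 91349436 had a log2 fold of 2.87 and was the member that missed the threshold. The cluster at 91349682 to 91349705 had 3.68, and the cluster at 91350544 to 91350591, just before MIR17, had 3.40, the lowest value among the enriched members. These 3 were the lowest folds of replicate 1 in MIR17HG.

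The microRNA region, from the first base of MIR17 to the last of MIR92A1, held 18 clusters, of which 18 were enriched, with log2 folds of 4.45 to 6.60. Its median log2 fold was 5.05, against 5.02 over the 33 clusters upstream of it. The difference, 0.03, was small beside the range in either region, and it turned to −0.03 when medians were taken over covered bases, so the regions could not be ordered by fold. Clusters covered 57.7% of the 787 bases of the microRNA region and 48.6% of the 2918 bases upstream.

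Downstream of MIR92A1 replicate 1 had 2 clusters, at log2 4.41 and 4.47, which touched those of MIR92A1 and ended at 91351461. The remaining 3116 bases of the RefSeq span held no cluster in either replicate. On the minus strand the span held 0 clusters in each replicate. The nearest plus-strand clusters outside the span lay 6956790 bases before it and 103676 bases after it in replicate 1, each at log2 −0.15.

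**Figure D1:**
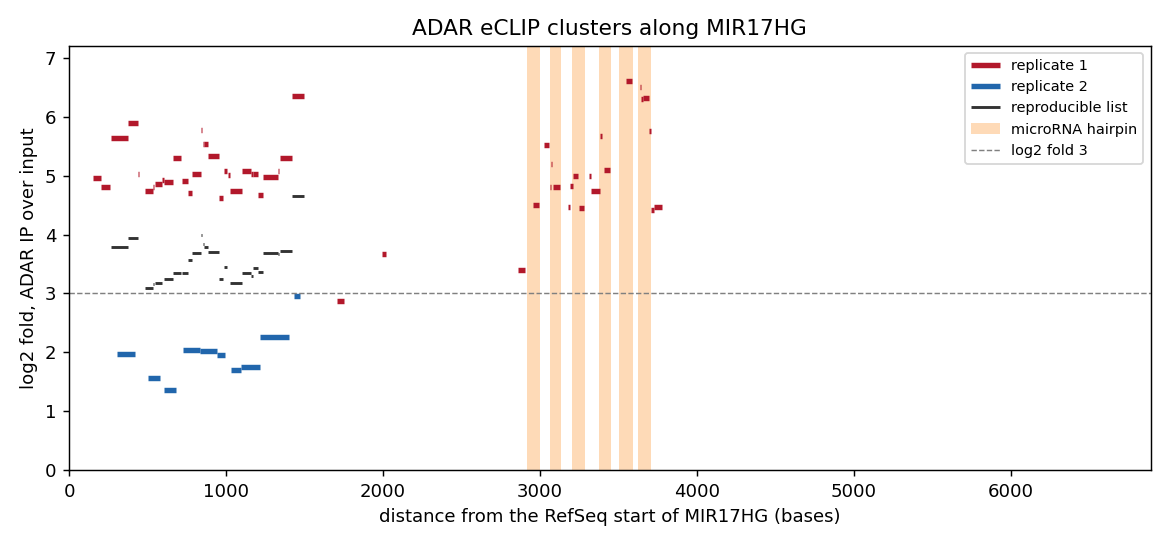
Authors' log2 fold of ADAR IP over input (vertical axis) against distance from the RefSeq start of MIR17HG in bases (horizontal axis), with 1 bar per cluster of replicate 1, replicate 2 and the reproducible list, the 6 hairpins shaded and log2 fold 3 dashed. Replicate 1 bars lie in a proximal stretch and at the hairpins, replicate 2 bars lie in the proximal stretch between 1.37 and 2.96, and reproducible peaks lie between the replicates.

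At the hairpins, enriched replicate 1 clusters overlapped 6 of 6. Of the 1560 hairpins of the RefSeq table, 319 were overlapped by any replicate 1 cluster and 48 (3.08% of the 1560) by an enriched one. MIR19B1, a member of the miR-19 family, had 1 cluster at positions 91351233 to 91351271 with the highest log2 fold of the gene, 6.60. MIR92A1, known for its effect on blood vessel growth, had 4 clusters between 5.75 and 6.50. MIR20A, a near copy of MIR17, had 3 clusters between 4.73 and 5.68, and MIR18A, whose processing is known to need HNRNPA1, had 3 between 4.80 and 5.20. MIR19A had 3 clusters between 4.45 and 4.99, and MIR17 had 1 at 4.50. The 2 hairpins nearest the 3′ end thus had higher values than the 4 before them.

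Few input reads stood behind these values, so the order of the hairpins is not firm. The fold and p of each cluster together gave the reads behind it, as described with the processing. MIR19B1 rested on 644 IP reads and 2 input reads, which gives an exact 95% interval of log2 4.74 to 9.65. The lead cluster of MIR92A1, at 91351324 to 91351330, rested on 904 IP reads and 3 input reads, with an interval of 4.95 to 8.78. MIR17 rested on 376 IP reads and 5 input reads, with an interval of 3.26 to 6.13. These intervals overlap, and the difference between the highest and the lowest hairpin was not tested. Intervals cover counting error only.

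The clusters lay unevenly over the hairpin arms. They covered 94.8% of the bases of the 3p arms (128 of 135) and 51.8% of the bases of the 5p arms (71 of 137). In MIR17 and MIR19B1, 0 of 23 bases of the 5p arm were covered, while the 3p arm was covered in full, and the covered bases began at hairpin positions 38 and 42. In MIR20A, 9 of 23 bases of the 5p arm were covered, against 22 of 22 of the 3p arm. MIR19A and MIR92A1 had both arms covered in full. MIR18A was the exception, with 17 of 23 bases covered in the 5p arm and 16 of 23 in the 3p arm. Outside the cluster, the 39 other hairpins with an enriched replicate 1 cluster and annotations for both arms were pooled. Of their bases, 73.2% in 3p arms and 49.2% in 5p arms were covered. The leaning of pooled bases was thus not limited to miR-17-92. By hairpin, 16 of the 39 had a larger share of the 3p arm covered, 7 of the 5p arm, and 16 had equal shares. In miR-17-92 these counts were 3, 1 and 2. The leaning was therefore not a trait of most hairpins. Coverage of the arms was compared after the values were seen and without a test.

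Coverage ran beyond some hairpins. Touching clusters began 39 bases before MIR18A, 26 bases before MIR19A and 65 bases before MIR20A, and they ran 70 bases past MIR92A1. For MIR17 and MIR19B1 the cluster lay inside the hairpin. The folding programme RNAfold predicted free energies from −38.7 kcal/mol for MIR19A to −21.1 kcal/mol for MIR18A. The highest fold was at MIR19B1, with −38.5 kcal/mol, but MIR19A, with the lowest predicted energy, reached 4.99 at most, above MIR17 alone. In the predicted structures 73.8% of the 324 covered bases were paired, against 78.5% of the 149 bases that were not covered. The hairpins differed in this. The paired share was higher in covered bases of MIR19A (84.3%, against 58.3% of its other bases) and MIR92A1 (76.5%, against 40%), and lower in those of the other 4.

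**Figure D2:**
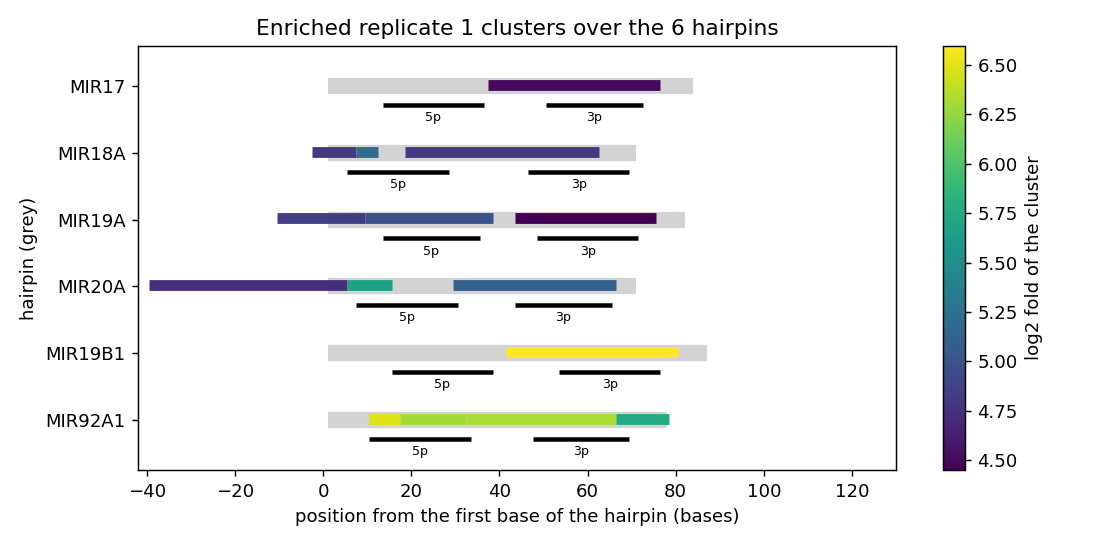
Enriched replicate 1 clusters that overlap each of the 6 hairpins (coloured bars, colour scale in log2 fold of IP over input), by position in bases from the first base of the hairpin; grey bars are the hairpins and black lines the 5p and 3p arms, and bars are drawn to at most 40 bases outside a hairpin. The 3p arm is covered in every hairpin, except for the last bases of that of MIR18A, while the 5p arms of MIR17 and MIR19B1 are bare.

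Replicate 2 had 0 clusters on the 6 hairpins, against 5.19% of the RefSeq hairpins overlapped by any replicate 2 cluster. A missing cluster does not show that reads were missing, because the lists hold only intervals that the authors' caller reported. All 10 replicate 2 clusters of MIR17HG lay in the proximal stretch, between 91347992 and 91349156. Their median width was 93.5 bases, against 34 bases for the replicate 1 members.

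The second question was how the replicates compared where both had clusters. Each of the 10 replicate 2 clusters had a mutual best partner in replicate 1. In 10 of 10 pairs the log2 fold was higher in replicate 1, by 2.67 to 3.66 with a median of 3.24. At the proximal end, the replicate 1 cluster had log2 5.63 (95% counting interval 5.09 to 6.24) and its replicate 2 partner had 1.98 (1.66 to 2.30). In the middle of the stretch, values were 5.33 (4.63 to 6.14) in replicate 1 and 2.03 (1.73 to 2.34) in replicate 2. At the distal end they were 6.34 (5.12 to 7.97) in replicate 1 and 2.96 (2.16 to 3.85) in replicate 2. The intervals of the replicates did not overlap in these 3 pairs, nor in the other 7. Where p was at its cap the replicate 1 reads were taken at their lower bound, which makes its interval wide.

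Among the pairs, both replicates had their highest value at the distal end of the stretch. In replicate 2 the lowest was 1.37 (0.94 to 1.81), at positions 91348291 to 91348365, and the partner of that cluster in replicate 1 had 4.89. The lowest replicate 1 value among the pairs was 4.62 (3.89 to 5.46), beside 1.95 in replicate 2. Within replicate 1 the intervals of these pairs overlapped, that of the highest pair (5.12 to 7.97) with that of the pair at 5.63 (5.09 to 6.24) included. Part of the overlap comes from intervals made wide by lower-bound reads. The order of the pairs was not tested and is not firm.

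**Figure D3:**
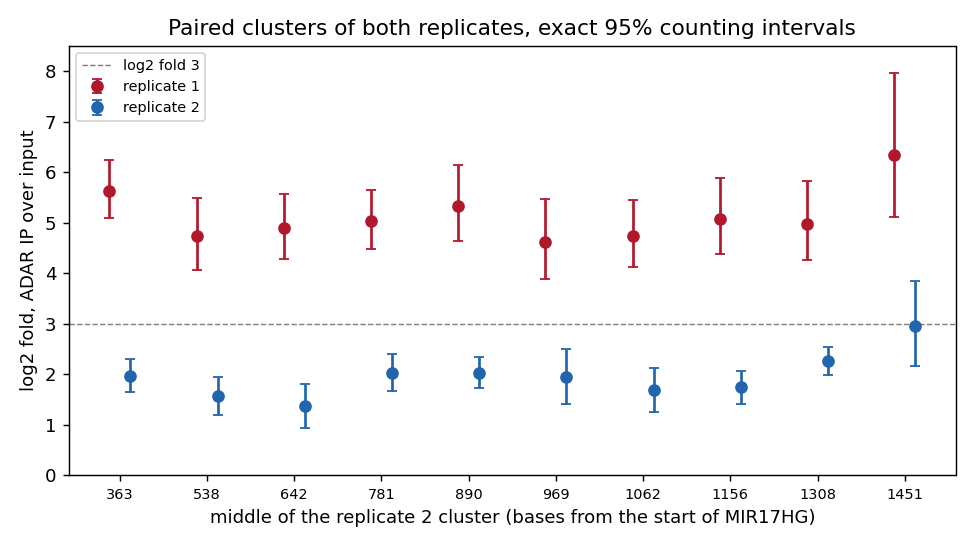
Log2 fold of ADAR IP over input (vertical axis) for the 10 pairs of replicate 1 and replicate 2 clusters in MIR17HG, ordered by distance in bases from the start of the gene (horizontal axis), with exact 95% counting intervals as bars. Each replicate 1 point lies above its replicate 2 partner, by 2.67 to 3.66.

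This direction was opposite to that of most pairs in the series. Over 87894 pairs genome-wide, replicate 1 minus replicate 2 had a median of −1.36, and 19.3% of pairs were above 0. A ratio of 3 IP reads to 1 input read, taken as the commonest, gives log2 −0.15 in replicate 1 and 2.44 in replicate 2. Under that assumption, the same ratio of reads gives a lower fold in replicate 1 than in replicate 2, because IP depth over input differs. The part of this in the genome-wide median was not tested. A difference of at least 2.67, the smallest in MIR17HG, was found in 572 pairs (0.651%). Among 3902 genes with at least 5 pairs and a known strand, MIR17HG had the highest median difference. Folds of its pairs helped to choose the gene, so nothing is read from that rank. EGFL7, a secreted protein gene, followed with 3.17 over 15 pairs and PTMA, which encodes prothymosin alpha, with 3.09 over 12 pairs, both named after their values were seen. CDC45 and GOLGA4, the genes that come next by number of reproducible peaks, had medians of −1.22 over 28 pairs and −1.42 over 57 pairs. With 1 value per cluster and replicate, no test of these differences was possible.

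The reads behind the clusters differed between replicates in both libraries. In replicate 1, the 28 clusters with resolved reads had 342 to 1351 IP reads and 2 to 27 input reads. In replicate 2, the 10 clusters had 69 to 403 IP reads and 16 to 152 input reads. IP depth was 3.33 times that of input in replicate 1 and 0.553 times in replicate 2. At 91348904 to 91349085, for example, replicate 2 had 403 IP reads against 152 input reads, while the paired replicate 1 cluster, at 91348924 to 91349015, had at least 1578 IP reads against at least 15 input reads. The part of input depth in the replicate difference was not tested. Neighbouring clusters share reads, so their read numbers cannot be added.

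The p-values were small in replicate 1. In its list 25 of the 53 MIR17HG clusters had a −log10 p of 400, called the cap here. Of these, 22 were upstream of the microRNAs and 3 among them, while 0.0318% of all replicate 1 clusters (170) were at the cap. Whether 400 was computed or stands in for p-values too small to compute is not known here. Below the cap, −log10 p of the members was between 23.0 at MIR17 and 111 at MIR92A1. In replicate 2 it lay between 10.2 and 73.0, and 0 members were at the cap, against 0.112% of all its clusters. All 10 replicate 2 clusters passed the p threshold and missed the fold threshold.

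**Figure D4:**
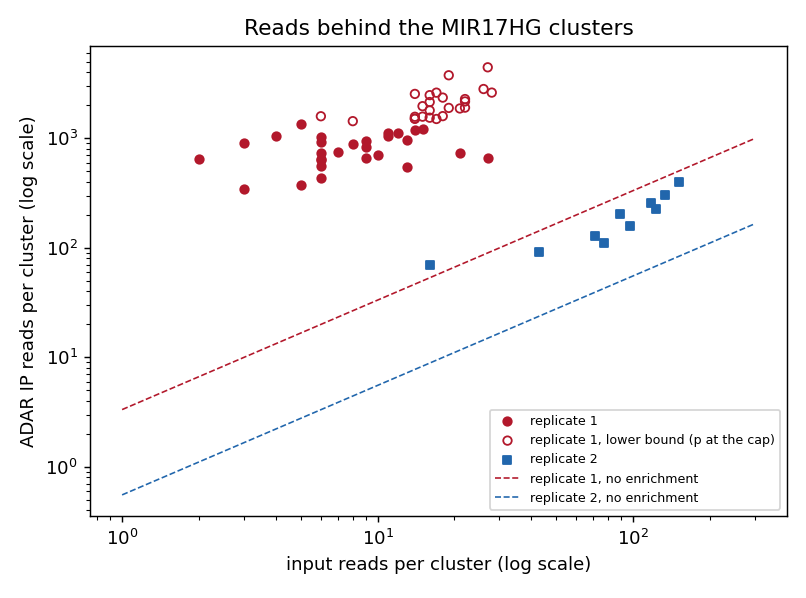
ADAR IP reads (vertical axis, log scale) against input reads (horizontal axis, log scale) for each MIR17HG cluster; open circles are lower bounds for clusters with p at the cap, and dashed lines show equal IP and input after depth scaling. Replicate 1 clusters have 2 to 28 input reads or lower bounds, and replicate 2 clusters have 16 to 152.

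The third question was which of these clusters entered the reproducible list. All 25 MIR17HG peaks of that list had exactly the interval of a replicate 1 cluster, against 45.8% of all reproducible peaks. They made up 25 of the 53 replicate 1 members, while 0.147% of all replicate 1 clusters were listed in this way. The gene was chosen by these peaks, so nothing is read from that share. The 25 were the 25 replicate 1 clusters that a replicate 2 cluster overlapped by at least 1 base. Of the 30 clusters of the proximal stretch, the 5 that were not listed had no overlapping replicate 2 cluster, although their log2 folds of 4.80 to 5.03 were close to the median of the listed ones, 5.03. The clusters on the hairpins, with folds up to 6.60 in replicate 1, likewise had no overlapping replicate 2 cluster and were not listed. Touching peaks joined into 4 sites, at 91347956 to 91348125, 91348171 to 91348279, 91348290 to 91348695 and 91348712 to 91349184.

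In the reproducible list the MIR17HG peaks had log2 folds of 3.08 to 4.66 with a median of 3.45, below the median of 4.62 over that whole list. The value of each of the 25 peaks lay between the fold of its replicate 1 cluster and those of the replicate 2 clusters it overlapped. For the 21 peaks with a single replicate 2 cluster, the mean of both folds differed from the listed value by −0.19 to 0.12. The highest peak, at 91349107 to 91349184, had 4.66 in the list, with 6.34 in replicate 1 and 2.96 in replicate 2. The lowest, at 91348171 to 91348220, had 3.08 in the list, with 4.74 in replicate 1 and 1.57 in replicate 2. The −log10 p of the listed peaks was 6.84 to 57.4, below that of replicate 1 in 25 of 25 and below that of replicate 2 in 23 of 25. No MIR17HG peak of the list overlapped a replicate 2 cluster that reached log2 3, since the highest replicate 2 fold in the gene was 2.96.

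Related microRNA clusters were set beside miR-17-92. The miR-106b-25 cluster lies in MCM7, a replication helicase gene on chromosome 7, and holds relatives of the same families. Its hairpins MIR25, MIR106B and MIR93 had highest log2 folds of 4.66, 4.40 and 4.29 in replicate 1, each below the 4.99 of MIR19A but near the 4.50 of MIR17. In replicate 2 none of the 3 had a cluster, as with miR-17-92. Over the whole MCM7 span 12 of 36 replicate 1 clusters were enriched, and 9 of the 12 lay on these hairpins. Off the hairpins, 3 of 26 MCM7 clusters were enriched, with a median log2 fold of 1.39. In MIR17HG 32 of the 33 clusters upstream of the microRNAs were enriched. Those 33 include the 25 listed as reproducible peaks, by which MIR17HG was chosen, so nothing is read from this contrast. The miR-106a-363 cluster on chromosome X, the other relative, had clusters on 2 of 6 hairpins, MIR92A2 at log2 1.44 and MIR19B2 at 0.59, and 0 were enriched. The sequence of these hairpins is close to that of their miR-17-92 relatives, and no source used here states how reads were assigned between copies.

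Among the 48 hairpins of the RefSeq table with an enriched replicate 1 cluster, ordered by highest log2 fold, the miR-17-92 members took ranks 1, 2, 4, 6, 8 and 11. MIR224 at 5.77 and MIR103A2 at 5.50, named after their values were seen, were placed between them. The median over the 48 was 4.07.

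**Figure D5:**
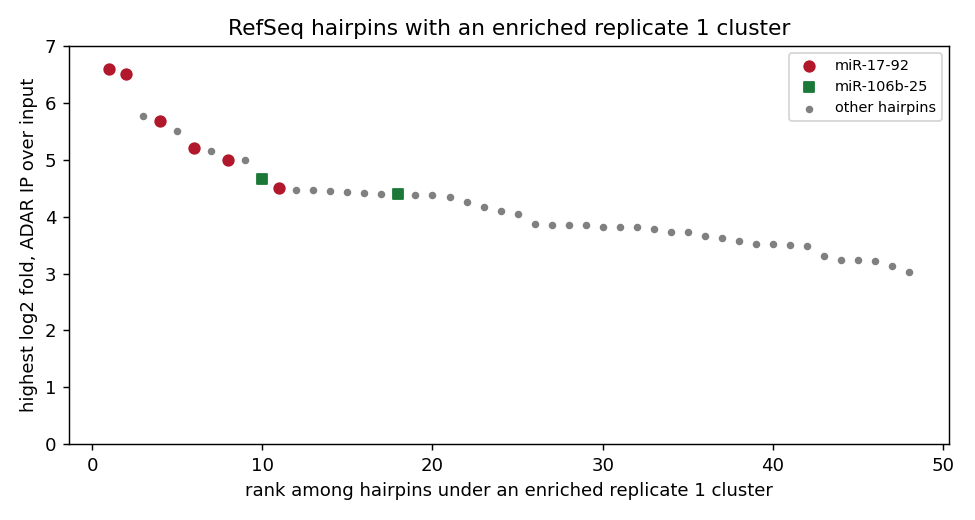
Highest log2 fold of ADAR IP over input in replicate 1 (vertical axis) for the 48 RefSeq hairpins with an enriched replicate 1 cluster, by rank (horizontal axis), with miR-17-92 as circles, MIR25 and MIR106B of miR-106b-25 as squares and the others as dots. The 6 miR-17-92 hairpins fall among the first 11 ranks; MIR93 is not in the sequence table and is not drawn.

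The 10 other transcripts that were listed as microRNA hosts and measured had no enriched cluster in replicate 1, unlike MCM7, which had 12 of 36. Of these 10, 6 had a cluster in replicate 1 and 0 had an enriched one. In replicate 2, 4 had a cluster and 1, MIR4435-2HG, had enriched ones, 4 of 64. Over all clusters the enriched share was 1.39% in replicate 1 and 12.8% in replicate 2. Apart from MIR4435-2HG, each host had at most 22 replicate 1 clusters, too few to read anything from 0 enriched. MIR4435-2HG had the most replicate 1 clusters of these hosts, 354. The highest replicate 1 log2 fold among them was 2.79, in MIR4435-2HG. GPC5, a glypican gene downstream of MIR17HG, had 0 enriched of 272 clusters in replicate 1 and 2 of 67 in replicate 2, beside the same shares over all clusters.

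Of 11 genes for microRNA processing and regulation, 4 had an enriched cluster in replicate 1 and 3 in replicate 2, and 0 had a reproducible peak. Their counts below stand against enriched shares of 1.39% over all replicate 1 clusters and 12.8% over all replicate 2 clusters, and nothing is read from the replicate 2 counts of XPO5 and LIN28B. DGCR8, whose own transcript carries hairpins that the DROSHA complex is known to cut, had 5 enriched clusters of 54 in replicate 1 (highest log2 3.99) and 0 of 43 in replicate 2. XPO5, the exporter of precursor hairpins, had 2 enriched of 103 in replicate 1 and 7 of 42 in replicate 2. LIN28B had 1 enriched of 99 in replicate 1 and 6 of 33 in replicate 2. E2F1, a target and activator of miR-17-92, had 1 enriched of 15 in replicate 1 and 1 of 7 in replicate 2. DROSHA, DICER1 and ADAR had 0 enriched clusters in either replicate.

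Listed markers were looked at for the labelled cell line. The 8 erythroid and K562 markers reported here had clusters in both replicates, while 0 of 3 hepatocyte markers with a known strand had one. HBG1, HBG2 and LMO2 entered only because clusters in their spans gave a strand, so their having clusters was fixed in advance. A marker without a RefSeq strand and with too few clusters was left out. Among markers with a RefSeq strand, GATA1, TFRC, BCR, ABL1 and TAL1 had clusters in both replicates, and ALB, SERPINA1 and FGB had none. Hepatocyte markers were looked at because the growth protocol also describes a liver line.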

How the data were processed

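The deposited lists give, per peak, a log2 fold of IP over input and a −log10 p-value, both made by the authors. The tools named, per the submitters' processing notes, are STAR 2.4.0i and cutadapt 1.9. The peak caller and the way of combining replicates are not given in the sources used here. Coordinates count from 1 on GRCh38.

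Members and gene lists were chosen with earlier results of these data known, and the named genes are MIR17HG, its microRNAs, their relatives, processing genes, microRNA hosts and the next genes by peaks. Strands came from RefSeq. For GOLGA4, HNRNPA1, MYC, HBG1, HBG2 and LMO2 they came from at least 80% of the clusters in the span. A gene with too few clusters for this got no strand. For MIR93 and MIR20B strands came from their neighbours. MIR124-2HG, APOA1, APOB and TTR were not analysed here, and 1 listed marker is not reported here.

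Each fold minus a constant was the log2 of a ratio of whole numbers (99.9% of replicate 1 and 99.7% of replicate 2 clusters within 1e-09, denominators up to 200), with the commonest fold taken as 3 IP reads over 1 input read. Reads were the multiple whose p matched the authors' p within 0.02 by a continuity-corrected chi-square test (0.4 by an exact binomial test under 5 reads). One multiple matched for 98.2% and 99.9% of 3000 clusters per replicate drawn from those with a log2 fold above 0 and a −log10 p above 3. Total reads are unknown. At the p cap only a lower bound was taken. Intervals are exact binomial, 95%. The step was tested on simulated data. No test between groups was run. Python 3.11.15, SciPy 1.17.1 and RNAfold 2.7.2 were used.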

Additional observations from a re-analysis of the deposited data

How the results depend on the processing

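Of 22 alternatives run, 16 moved a value by no more than 1.5 times or the spread between clusters. The enriched count of replicate 1 was 50 to 53 under every threshold and overlap rule tried, against 52. In replicate 2 it was 4 with a log2 fold minimum of 2 and 0 under the others. The 25 reproducible peaks became 4 sites when touching peaks were merged, 1 peak with a log2 fold minimum of 4, 25 without replicate 2 and 0 without replicate 1. The 25 without replicate 2 is no check, since the list was made from both replicates and each of its peaks here overlapped a replicate 2 cluster. The 6 hairpins became 4 when at least 50% had to be covered and 0 without replicate 1, so the hairpin count rests on replicate 1. The median fold of the microRNA region minus that upstream was 0.030 over clusters and turned to −0.028 over covered bases, and it could not be had in replicate 2, which had no cluster in the microRNA region. The cause was not tested. The replicate difference stayed between 3.24 and 3.25. Input reads, as few as 2, limit the folds of the hairpins. No paired analysis was possible because each fold already sets an IP against the input of its number and the values come from no test across samples.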
